A study of Mus musculus with 2 samples.

Results

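The acute phase and complement proteins are plasma proteins that the liver makes for the first defence against infection and injury. The group described here holds 37 listed genes, 21 of the acute phase and 16 of complement, and its members are all probe sets whose platform annotation gives one of these symbols and no other. Of the 37 genes, 35 had such a probe set (55 probe sets in all), among 18193 named genes on the array. The only probe set found for C4b is also annotated to its neighbouring copy C4a and was given to neither, and array values of C3 were not analysed here. All 35 genes lay above the floor, a lower limit explained below, on both arrays.

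In the acute phase response, interleukin 6, interleukin 1 and tumour necrosis factor act on hepatocytes, and the transcription factors STAT3, NF-kappaB and C/EBP raise the output of proteins such as serum amyloid A, haptoglobin and the orosomucoids. Complement is a cascade of proteases and pore-forming proteins, started by antibodies (the classical pathway), by sugar-binding lectins (the lectin pathway) or on a surface directly (the alternative pathway), and it ends in the membrane attack complex. Hepatocytes make most circulating complement, while macrophages make C1q and properdin. PPARα is a nuclear receptor of fatty acid metabolism, known also as a restraint on inflammatory transcription in liver.

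The arrays compared livers of male 129SvEJ mice, aged 8 weeks, that lacked PPARα (pparalpha-/-, here called null) with livers of wild-type mice of the same strain, age and sex. Both genotypes ate chow with 0.2% fenofibrate, a drug that activates PPARα, for 7 days, so the null mice received it as well and the contrast joins differences present without the drug with differences in response to it. RNA of 3 mice was pooled per genotype and each pool went onto 1 array. No array of mice without fenofibrate was analysed here.

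Signals are intensities on a linear scale, 1 per probe set and array, which the authors scaled to a common target. With 1 array per genotype there is no replicate, so no standard error, p-value or test can be given, and differences are described by size, as the log2 ratio of null over wild type or as a fold, with 1.5-fold and 2-fold as limits. Signals under the floor, the median of all probe sets that are not controls (269.4 in null and 287.8 in wild type), were raised to it. A gene is represented by its brightest probe set, and levels of different genes are not compared, because probe sets differ in brightness. Where a gene had several probe sets, their log2 ratios had a pooled SD of 0.42 (10117 probe sets of 3917 genes), and of 0.14 where both signals were 10000 or more (516 probe sets of 219 genes). This is the only error that the data offer, and it holds neither animal nor pool variation.

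The deleted gene Ppara gave 3414 in null and 7957 in wild type at its brightest probe set, and its other probe sets were also lower in null; whether they lie in the deleted part is not given in what was used here, so the check is a limited one. All 7 measured hepatocyte markers (of 8 listed) were above the floor on both arrays, with Alb, which encodes albumin, at 212369 in null and 192642 in wild type. The choice of scaling matters for every direction below. Transcripts added to each hybridization as controls (18 probe sets) had a median log2 ratio of 0.38, and scaling the arrays to them lowers every ratio by that amount, which puts the median of all 13041 measured genes at -0.38 in place of -0.005. Directions are therefore stated for the deposited scaling, and members whose direction turned round under the control scaling are named.

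Most of the group was higher in null livers by less than 2-fold. Of the 35 genes, 29 had a positive log2 ratio, against 49.6% of all measured genes, and 11 were at least 1.5-fold higher, against 11.0%. At the 2-fold limit, 2 genes were higher (2.80% of all measured genes), namely Orm3 and C2. In the other direction, 2 genes were at least 1.5-fold lower in null (14.8% of all measured genes), namely Il1rn and Mbl1, and 0 were at least 2-fold lower (4.99% of all measured genes). The median log2 ratio over the 35 genes was 0.43, against -0.005 over all measured genes, and the quartiles of the members were 0.22 and 0.66. Under the control scaling, 21 of the 35 genes stayed positive and the median was 0.05, against -0.38 over all measured genes. The share of all measured genes positive under that scaling was not computed. Counts of positive genes under it, here and below, are therefore not to be set against 49.6%. That scaling moves all genes alike, so the distances to the median of all genes (0.43 for the acute phase and 0.48 for complement) are fixed under it, and over the other alternatives they lay between 0.35 and 0.45 for the acute phase and between 0.41 and 0.50 for complement. The same scaling left 407 of all measured genes at least 1.5-fold higher and 4397 at least 1.5-fold lower in null, against 1438 and 1925 as deposited. In pooled tissue RNA, fewer cells of a type and less RNA per cell cannot be told apart.

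**Figure D1:**
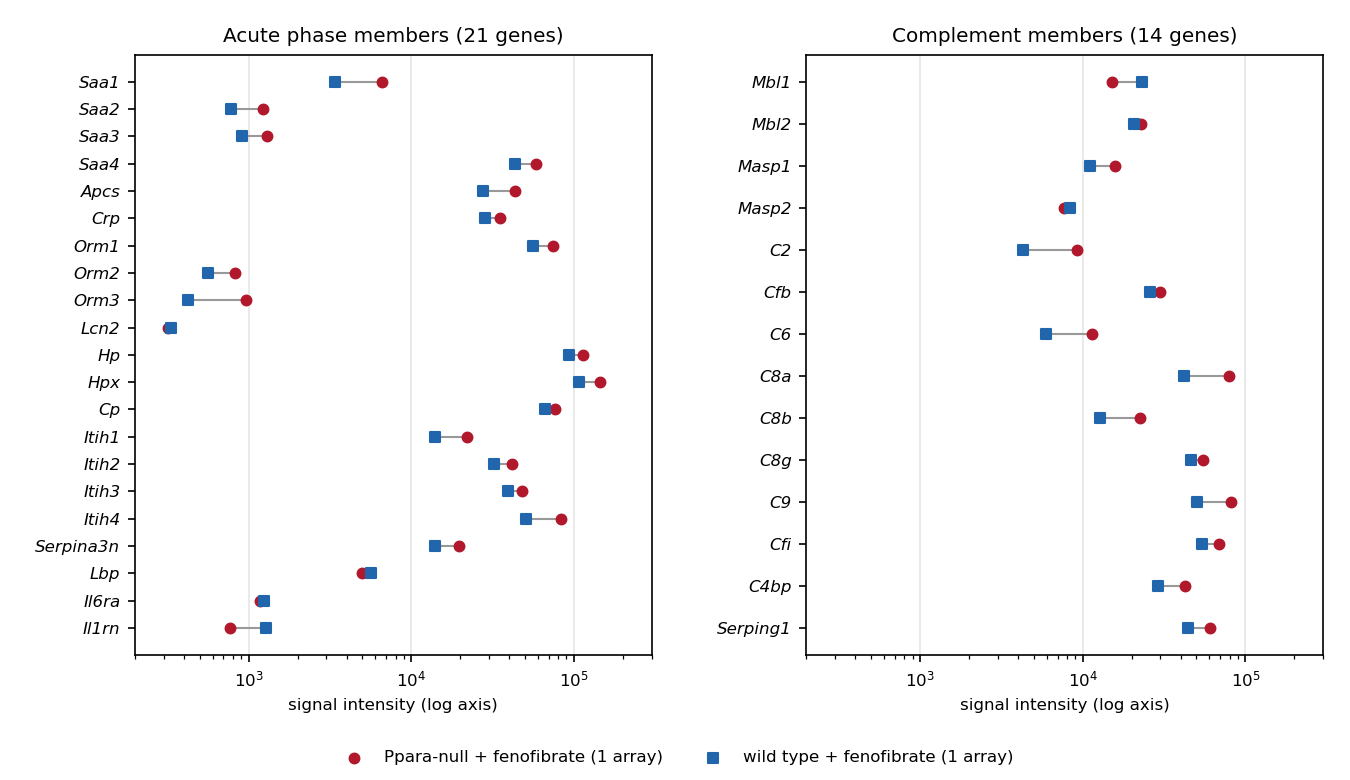
Signal intensity of each member gene at its brightest probe set (x axis, log scale) in Ppara-null livers (circles) and wild-type livers (squares), both fed fenofibrate, 1 array of pooled RNA per genotype and no error bars. The circle lies to the right of the square for 17 of 21 acute phase genes and 12 of 14 complement genes, as deposited (13 and 8 after scaling to the hybridization controls), and positions of different rows are not comparable levels.

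The 21 acute phase genes had a median log2 ratio of 0.43 (1.34-fold, SD across genes 0.41), with 17 positive and 6 at least 1.5-fold higher. The 14 measured complement genes had a median of 0.48 (1.39-fold, SD across genes 0.46), with 12 positive and 5 at least 1.5-fold higher. Of all measured genes, 49.6% were positive and 11.0% were at least 1.5-fold higher. The difference of the medians, acute phase minus complement, was -0.05 and turned to 0.01 with the median ratio of each gene's probe sets in place of the brightest one. No test of it is possible with 1 array per genotype. The ranges overlapped almost wholly, from -0.74 to 1.18 in the acute phase and from -0.62 to 1.12 in complement. Values are given below by the role of the genes.

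**Figure D2:**
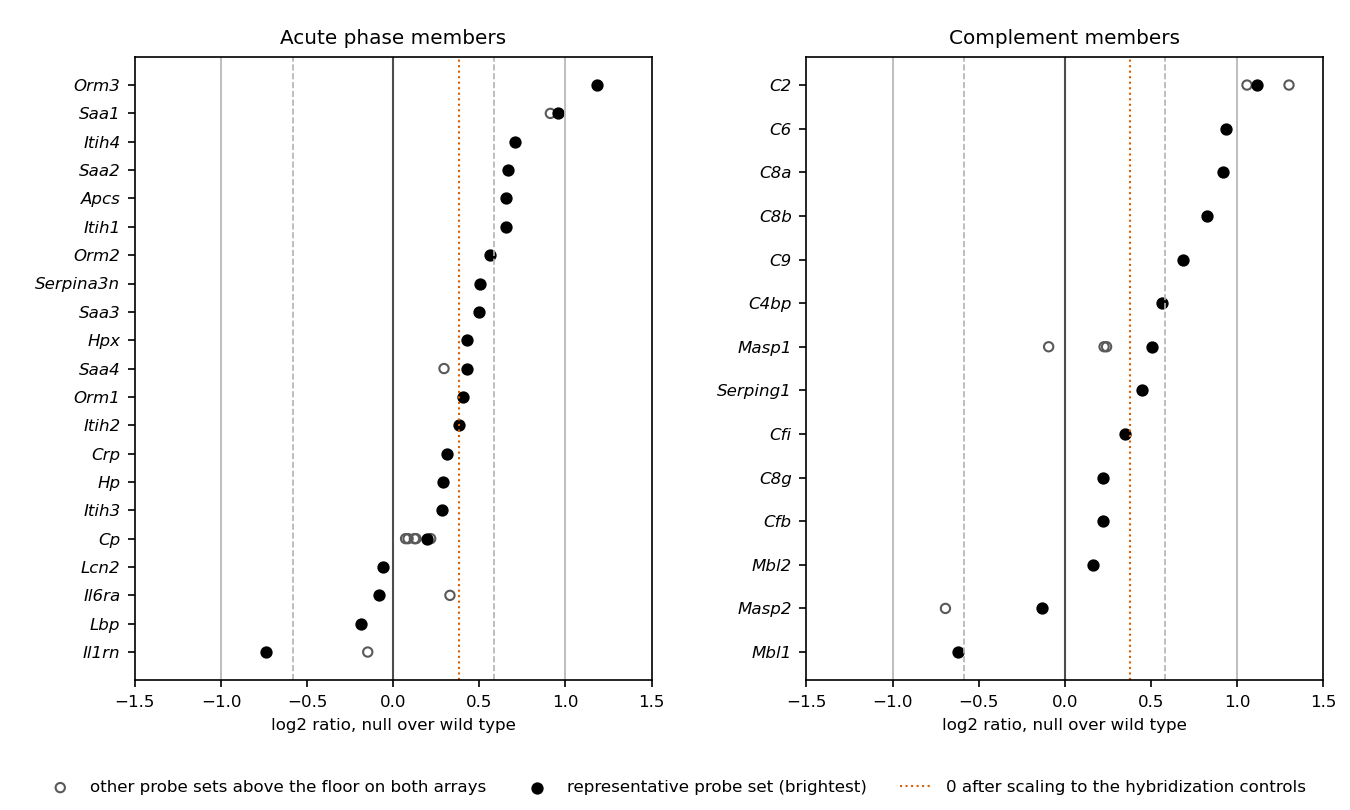
Log2 ratio of null over wild type (x axis) for each member probe set that passed the floor on both arrays, with the brightest probe set of a gene filled and others open, dashed lines at 1.5-fold, solid grey lines at 2-fold, and a dotted line where 0 would lie after scaling to the hybridization controls. Orm3 and C2 lie beyond 2-fold, Il1rn and Mbl1 are the lowest filled points, and 14 of the 35 filled points are left of the dotted line.

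Serum amyloid A proteins are apolipoproteins of HDL that surge in the acute phase response, except for Saa4, which is made constitutively. Saa1 gave 6559.7 in null and 3377 in wild type at one probe set, and 5346 in null and 2840.1 in wild type at the other. Its null signal was thus higher at both probe sets, by 1.94-fold and 1.88-fold. Saa2 gave 1233 in null and 777.8 in wild type (1.59-fold higher), at a probe set of the type that may also bind close copies, so the signals of Saa1 and Saa2 cannot be fully separated. Saa3, the form made also by macrophages, gave 1295 in null and 915.8 in wild type (1.41-fold). The constitutive Saa4 gave 58364 in null and 43426 in wild type (1.34-fold), and 1.23-fold at its second probe set. The 4 genes lie side by side without another protein-coding gene between them in the mouse gene order of GRCm38.p6, and all 4 were higher in null, also under the control scaling.

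The upstream sequences of Saa1 and Saa2 are shown because these near-identical neighbours had ratios of the same direction. Each window covers 250 bases before the transcription start and 50 after it, read in the direction of the gene from RefSeq (GRCm38.p6), and capitals mark the match to the C/EBP motif TTGCNNAA on either strand. Saa1 (chr7:46742931-46743230, minus strand) and Saa2 (chr7:46751583-46751882, plus strand) were identical at 287 aligned bases, or 95.3% of the alignment.
Saa1: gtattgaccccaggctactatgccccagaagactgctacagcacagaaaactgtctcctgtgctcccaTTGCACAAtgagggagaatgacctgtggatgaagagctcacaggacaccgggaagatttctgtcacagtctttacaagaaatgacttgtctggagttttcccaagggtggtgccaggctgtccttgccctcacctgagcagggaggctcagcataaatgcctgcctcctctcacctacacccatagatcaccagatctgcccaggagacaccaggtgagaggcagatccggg
Saa2: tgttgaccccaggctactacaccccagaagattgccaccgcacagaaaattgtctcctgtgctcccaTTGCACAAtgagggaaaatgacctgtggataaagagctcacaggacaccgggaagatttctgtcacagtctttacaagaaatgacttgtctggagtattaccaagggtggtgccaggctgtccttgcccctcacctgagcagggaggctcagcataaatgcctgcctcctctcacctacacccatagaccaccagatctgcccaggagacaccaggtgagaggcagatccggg

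The pentraxins are ring-shaped pattern recognition proteins that can start complement. Apcs, serum amyloid P component and the main acute phase pentraxin of mice, gave 43519 in null and 27631 in wild type, 1.58-fold higher. Crp, C-reactive protein, which is only a minor reactant in mice, gave 34980.1 in null and 28209 in wild type, 1.24-fold higher as deposited and slightly lower under the control scaling (log2 ratio -0.07). The genes are direct neighbours in the gene order, with log2 ratios of 0.66 and 0.31. The scatter of 0.14 seen at such bright signals is that of a single ratio. A difference of 2 ratios scatters more, so the genes cannot be called different in ratio from it.

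Orosomucoids are acidic glycoproteins of the lipocalin fold that carry small lipophilic molecules. Orm3 had the largest log2 ratio of the whole group, with 963.9 in null and 424.5 in wild type, 2.27-fold higher. Both signals are dim, and with the floor at the 75th percentile of each array the log2 ratio was 0.25, against 1.18 with the median floor. Orm2 gave 826.1 in null and 560.1 in wild type (1.47-fold), with a log2 ratio of 0.56 that was 0.03 under the higher floor. Orm1, the main form of liver, gave 74208 in null and 56009.8 in wild type (1.32-fold). All 3 were higher in null under every scaling tried, although Orm1 came close to 0 under the control scaling (log2 ratio 0.03). Because the orosomucoid genes are close copies in a row, the array may not separate them fully.

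Upstream windows of Orm2 (chr4:63362199-63362498, plus strand) and Orm3 (chr4:63355908-63356207, plus strand) are shown as the neighbours with the larger ratios. They were identical at 264 aligned bases (86.6% of the alignment), and capitals mark the C/EBP motif, which differs between them inside its unspecified bases.
Orm2: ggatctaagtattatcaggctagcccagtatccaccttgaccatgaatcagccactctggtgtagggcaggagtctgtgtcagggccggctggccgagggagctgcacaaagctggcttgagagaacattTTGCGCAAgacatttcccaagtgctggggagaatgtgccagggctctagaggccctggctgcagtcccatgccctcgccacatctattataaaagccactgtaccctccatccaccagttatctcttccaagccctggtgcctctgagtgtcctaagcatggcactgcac
Orm3: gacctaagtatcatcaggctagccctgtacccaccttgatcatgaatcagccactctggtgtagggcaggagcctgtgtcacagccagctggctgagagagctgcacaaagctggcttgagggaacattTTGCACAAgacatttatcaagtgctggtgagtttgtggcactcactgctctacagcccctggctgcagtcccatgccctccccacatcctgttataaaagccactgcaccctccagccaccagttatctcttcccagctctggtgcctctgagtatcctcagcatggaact

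Lcn2, lipocalin 2, which withholds iron from bacteria by binding their siderophores, stood apart from the orosomucoids. It gave 318.3 in null and 332.1 in wild type, just above the floor on both arrays, and in null it was dimmer than a Bacillus control (422.4), which measures no mouse transcript. Its log2 ratio of -0.06 therefore carries no direction, and it was positive under loess and quantile scaling and with a floor at the brightest Bacillus control. Neutrophils are another source of Lcn2, and 4 of 8 listed neutrophil markers were measured, with 0 positive and a summed signal over the 7 markers on the array of 1861 in null and 2186 in wild type. Of these markers, S100a8, S100a9 and Camp were under the floor on both arrays and none was at 0. Ltf (328.2), Mpo (307.7) and Ngp (340.5) were in null also dimmer than that Bacillus control. Elane had a log2 ratio of -0.03, so the direction of the neutrophil markers is not settled.

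The carriers of haemoglobin, haem and copper were all higher in null as deposited, each by less than 1.5-fold, with a median log2 ratio of 0.29. Hp, haptoglobin, gave 113149 in null and 92769.8 in wild type (1.22-fold higher). Hpx, haemopexin, gave 144291 in null and 107321 in wild type (1.34-fold higher). Cp, the copper-carrying ferroxidase ceruloplasmin, gave 76270.5 in null and 66629 in wild type (1.14-fold higher), and the 6 of its probe sets that passed the floor in both livers had log2 ratios between 0.07 and 0.22. Under the control scaling Hpx stayed positive (0.05), while Hp (-0.09) and Cp (-0.18) were lower in null.

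The inter-alpha-trypsin inhibitor heavy chains are plasma proteins that bind hyaluronan and stabilise the extracellular matrix. Itih4, the acute phase form, gave 83180.4 in null and 50889.8 in wild type, 1.63-fold higher. Itih1 gave 21909 in null and 13922 in wild type, 1.57-fold higher. Itih2 (1.30-fold) and Itih3 (1.22-fold) were higher by less, with 41847 and 48033 in null against 32120.5 and 39473 in wild type. Itih4, Itih3 and Itih1 follow each other directly in the gene order, with Itih3 between the pair that passed 1.5-fold. Under the control scaling Itih3 was slightly lower in null (log2 ratio -0.10), Itih2 stood at 0.002, and the other heavy chains stayed higher. Serpina3n, an inhibitor of serine proteases that is a strong acute phase gene in mice, gave 19738 in null and 13908 in wild type (1.42-fold higher).

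None of the 3 endotoxin and cytokine genes was higher in null at its brightest probe set. Il1rn, which encodes the antagonist of the interleukin 1 receptor, gave 764.7 in null and 1274 in wild type at its brightest probe set, 1.67-fold lower. Its other probe sets gave 635.9 and 219.7 in null against 704.7 and 738.3 in wild type, so all of them were lower in null, although by different amounts. Lbp, the lipopolysaccharide-binding protein, gave 4962 in null and 5642.5 in wild type (1.14-fold lower). Il6ra, the interleukin 6 receptor, gave 1174 in null and 1241 in wild type at one probe set and 1207 in null and 960.6 in wild type at the other, so its probe sets disagreed in direction. The 3 genes had a median log2 ratio of -0.19, against 0.58 for the 6 serum amyloid and pentraxin genes, and no test of that difference is possible. As deposited, Lbp (-0.19) and Il6ra (-0.08) lay within the scatter of 0.42 between probe sets of a gene. Only Il1rn (-0.74) lay beyond it.

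Among complement genes, the terminal components, which assemble the membrane attack complex, were all higher in null as deposited, with a median log2 ratio of 0.83. C6 gave 11468 in null and 5983 in wild type, 1.92-fold higher. C8a and C8b, the alpha and beta chains of C8, gave 79493 and 22554.5 in null against 42059.7 and 12699.5 in wild type, 1.89-fold and 1.78-fold higher. C9, the pore-forming subunit, gave 81666.5 in null and 50652 in wild type, 1.61-fold higher. C8g, the lipocalin-type gamma chain of C8, gave 54481 in null and 46614 in wild type and was only 1.17-fold higher, turning to a log2 ratio of -0.15 under the control scaling. Of the 5 terminal genes, 4 were at least 1.5-fold higher as deposited, against 11.0% of all measured genes. After the control scaling 0 were, against 407 of the 13041 measured genes, and C6, C8a, C8b and C9 kept log2 ratios of 0.56, 0.54, 0.45 and 0.31. C8a and C8b are direct neighbours in the gene order, and C8g lies on another chromosome.

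Upstream windows of C8a (chr4:104876349-104876648, minus strand) and C9 (chr15:6445096-6445395, plus strand) are shown as terminal genes that hold a motif of an acute phase factor. Capitals mark the STAT3 palindrome TTCNNNGAA in C8a and the C/EBP motif in C9. These motifs were in 8.30% and 10.8% of all promoters searched, and the terminal genes C6, C8b and C8g held neither.
C8a: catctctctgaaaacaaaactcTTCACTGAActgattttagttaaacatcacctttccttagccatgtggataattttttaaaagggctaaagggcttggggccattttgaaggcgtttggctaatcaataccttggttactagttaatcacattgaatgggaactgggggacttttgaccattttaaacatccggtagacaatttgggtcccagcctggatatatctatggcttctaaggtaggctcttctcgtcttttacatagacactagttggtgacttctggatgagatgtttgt
C9: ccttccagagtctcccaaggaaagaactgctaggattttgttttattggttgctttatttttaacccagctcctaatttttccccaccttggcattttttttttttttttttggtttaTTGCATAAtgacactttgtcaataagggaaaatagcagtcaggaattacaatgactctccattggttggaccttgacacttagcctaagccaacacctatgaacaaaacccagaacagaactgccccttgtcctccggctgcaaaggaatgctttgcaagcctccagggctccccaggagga

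The initiating proteases and lectins were split. C2, the protease of the C3 convertase of the classical and lectin pathways, gave 9269 in null and 4268 in wild type at its brightest probe set, 2.17-fold higher. Its other probe sets gave 5535 and 5095 in null against 2658 and 2066 in wild type, 2.08-fold and 2.47-fold higher, so all 3 passed 2-fold. The SD of these 3 log2 ratios was 0.13, and under the control scaling C2 remained 1.67-fold higher. The brightest probe set and the one at 2.08-fold are of the type that may also bind close copies. Without them the log2 ratio of C2 was 1.30. Cfb, factor B, the corresponding protease of the alternative pathway and the direct neighbour of C2, gave 30039 in null and 25758 in wild type, 1.17-fold higher and slightly lower under the control scaling (log2 ratio -0.16).

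Mannose-binding lectins recognise microbial sugars and bind the MASP proteases. Mbl1 gave 15096 in null and 23185 in wild type, 1.54-fold lower. It was the only complement gene at least 1.5-fold lower in null, lay under that limit after median centring (log2 ratio -0.58), and stood at -0.998 after the control scaling. Mbl2 gave 22964.5 in null and 20527.5 in wild type, 1.12-fold higher as deposited and lower after the control scaling (log2 ratio -0.22). Masp1 gave 15701.5 in null and 11063 in wild type (1.42-fold higher), while its 3 dimmer probe sets that passed the floor in both livers had log2 ratios between -0.09 and 0.24. Masp2 was lower in null at both probe sets, with 7623 in null and 8364 in wild type at one, and 1381 in null and 2233 in wild type at the other (1.10-fold and 1.62-fold).

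The soluble inhibitors of complement were all higher in null by less than 1.5-fold. C4bp, the C4b-binding protein, gave 42594 in null and 28836 in wild type (1.48-fold). Serping1, the C1 inhibitor, gave 60853 in null and 44588 in wild type (1.36-fold). Cfi, factor I, which cleaves C3b and C4b, gave 69010.2 in null and 54210.0 in wild type (1.27-fold), and was at a log2 ratio of -0.03 under the control scaling.

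Since many of these transcripts are abundant in liver, the members were also set beside genes of similar brightness, with a limit chosen after the values were seen. Of the 35 members, 23 had signals of 10000 or more on both arrays, and 22 of them had a positive log2 ratio, against 58.9% of the 900 genes that met the same limit. At least 1.5-fold higher were 6 of the 23, against 6.78% of these 900 genes, and 1 (Mbl1) was at least 1.5-fold lower, against 6.22%. The bright members had a median log2 ratio of 0.43, and the 900 genes one of 0.07.

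**Figure D3:**
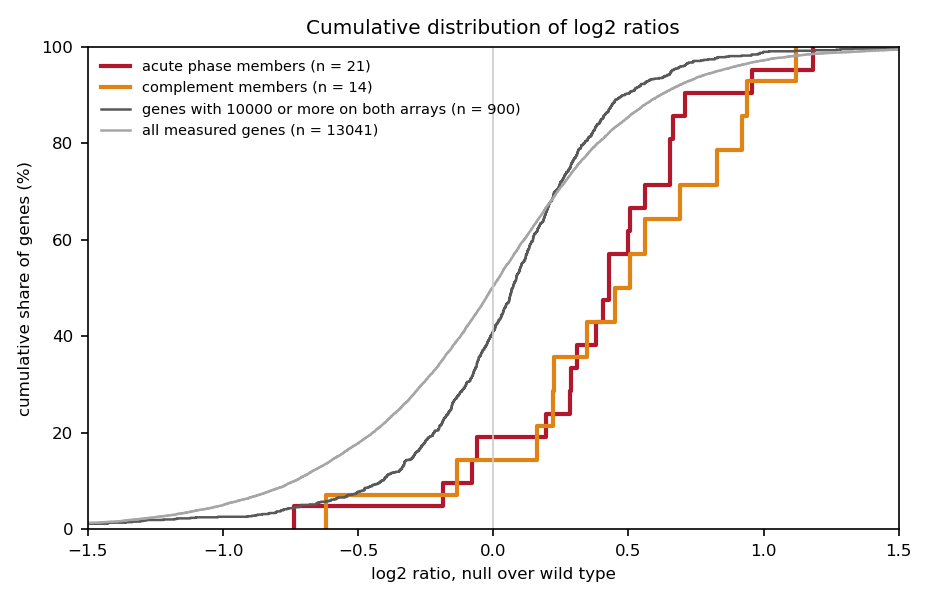
Cumulative share of genes (y axis, in percent) by log2 ratio of null over wild type (x axis, drawn from -1.5 to 1.5, as deposited) for acute phase members, complement members, genes with signals of 10000 or more on both arrays and all measured genes. Both member curves lie to the right of the curve of all genes over most of their length, with medians of 0.43 and 0.48 against -0.005, and the control scaling would move all curves left by 0.38 alike.

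Other secreted proteins of hepatocytes were also higher in null as deposited. Of 15 listed negative acute phase and other secreted hepatocyte proteins, whose negative members such as Alb and Ttr (transthyretin) are known to be made less in inflammation, 13 were measured, and all 13 had a positive log2 ratio as deposited (6 under the control scaling). Their median was 0.37, close to the medians of 0.43 and 0.48 above, with Fetub, fetuin B, highest at 45807 in null and 26708 in wild type (1.72-fold). Alb was 1.10-fold and Ttr 1.17-fold higher in null. Of the 13, 0 were at least 2-fold apart. The 7 hepatocyte markers had a median of 0.31.

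Other acute phase genes were mixed. Of 19 listed, 15 were measured, 11 were positive and 2 were at least 2-fold higher in null, with a median log2 ratio of 0.26. With the arrays scaled to the hybridization controls, 3 were positive, the median was -0.12, 1 (Mt2) was at least 2-fold higher and 1 (Lrg1) at least 2-fold lower. Mt2, a metallothionein that binds zinc and copper, gave 28597 in null and 5906 in wild type (4.84-fold higher). Mt1 gave 45011 in null and 19741 in wild type (2.28-fold higher), at a probe set of the type that may also bind close copies. A dimmer probe set of Mt1 gave 724.6 in null and 468.0 in wild type (log2 ratio 0.63), under the 2-fold limit. Named after its value was seen, Lrg1, a secreted glycoprotein induced by interleukin 6, went the other way, with 10491 in null and 17497 in wild type (log2 ratio -0.74).

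Of 28 listed further complement genes, 19 were measured and 14 were positive, with a median log2 ratio of 0.21 as deposited and -0.17 under the control scaling. C1s1, a serine protease of the C1 complex, gave 16775 in null and 7607 in wild type and was 2.21-fold higher, at a probe set that may also bind its close copy, and 0 genes of the list were at least 2-fold lower as deposited. Scaled to the hybridization controls, 8 of the 19 were positive, 0 were at least 2-fold higher (C1s1 had a log2 ratio of 0.76) and 1, the ficolin gene Fcnb at 292.3 in null and 451.5 in wild type, was at least 2-fold lower. In null Fcnb was just above the floor and dimmer than the brightest Bacillus control (422.4). Its log2 ratio of -1.01 only just passed the limit. C1ra, the partner protease of C1s1 (12532.5 in null and 7172 in wild type, 1.75-fold higher), and Hc, which encodes C5 (44712 in null and 28134 in wild type, 1.59-fold higher), were named after their values were seen. The macrophage-made C1qa, C1qb and C1qc were 1.22-fold, 1.07-fold and 1.54-fold higher as deposited. Other probe sets of C1qb had log2 ratios of -0.16 and 0.57, so its direction is not settled. The log2 ratios of C1qa (0.29) and C1qb (0.10) lay below the 0.38 by which the control scaling lowers every ratio. Beside the C1q genes, 7 of 8 listed Kupffer cell and macrophage markers were measured and 6 were positive, with a median log2 ratio of 0.62. Under the control scaling 5 were positive and the median was 0.25. As deposited, the summed signal over the 8 was 22046.5 in null and 15190.5 in wild type. Marco was under the floor on both arrays, Cd68 in null only, and none was at 0. Their part in the complement values was not tested.

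At their brightest probe sets, the signalling genes of the acute phase response were less than 2-fold apart as deposited. Of 13 listed receptor and JAK-STAT3 genes, all were measured, 10 were positive and the median log2 ratio was 0.28. Under the control scaling 6 were positive, the median was -0.10, and 1 gene (Socs3) was at least 2-fold lower in null. The largest ratio was that of Lifr, the receptor of leukaemia inhibitory factor, with 35423 in null and 17881 in wild type (1.98-fold higher). A second probe set of Lifr passed 2-fold, with 8896.6 in null and 4373.6 in wild type (log2 ratio 1.02). A dim one had a log2 ratio of -0.08. Named after their values were seen, Stat3 gave 4404.5 in null and 2749.8 in wild type (1.60-fold higher) at its brightest probe set, while a dim one ran the other way (126.1 in null, under the floor, and 538.8 in wild type). Socs3, the STAT3-induced brake on interleukin 6 signalling, gave 646.4 in null and 1150.3 in wild type (1.78-fold lower), and a dimmer probe set gave 236.8 in null, under the floor, and 585.9 in wild type. Of 13 listed NF-kappaB and C/EBP genes, 11 were measured and 10 were positive, 0 were at least 2-fold apart, and the median was 0.41 as deposited and 0.03 under the control scaling. The largest was Cebpd, a C/EBP factor induced in the acute phase, with 1676 in null and 1014 in wild type (1.65-fold higher).

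**Figure D4:**
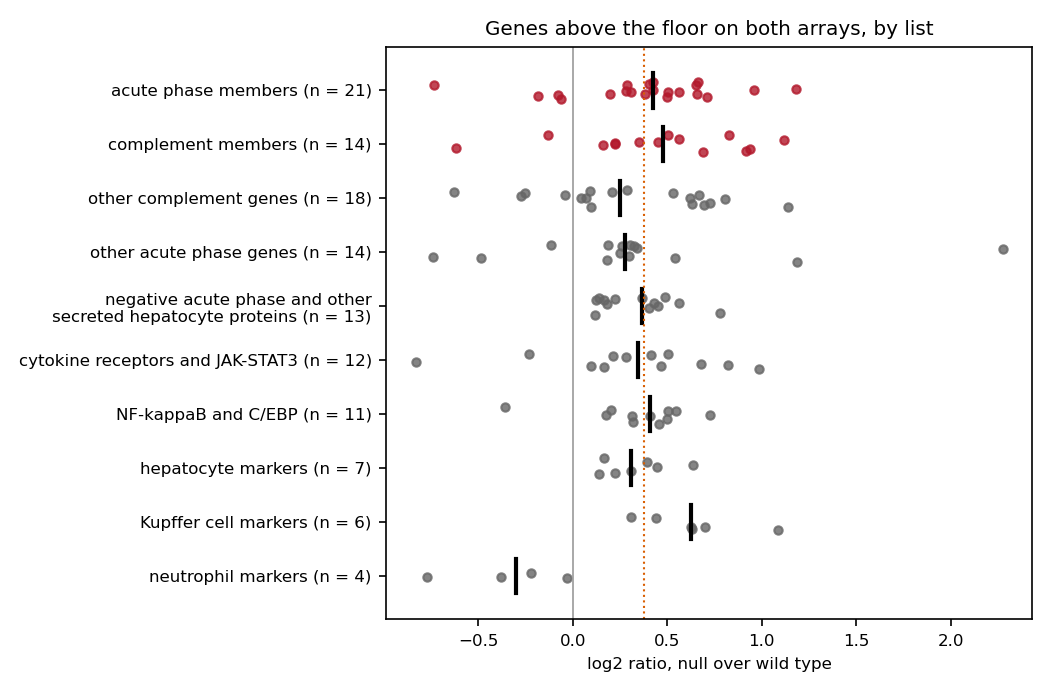
Log2 ratio of null over wild type (x axis) of each gene above the floor on both arrays, by list, with members in red, other genes in grey, black bars at the medians and a dotted line where 0 would lie after scaling to the hybridization controls. As deposited, medians were 0.43 for acute phase members, 0.48 for complement members and 0.37 for negative acute phase and other secreted proteins. The 4 neutrophil markers were all negative, but Ltf, Mpo and Ngp were in null dimmer than a Bacillus control and Elane was near 0. Under the control scaling each point moves left by 0.38.

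Promoter windows of the length given above were searched for 5 motifs on both strands, for the 28 members with an entry (18 acute phase genes with 21 promoters and 10 complement genes with 11). The C/EBP motif TTGCNNAA was in 10 of 21 acute phase promoters (47.6%) and in 2 of 11 complement promoters (18.2%; C3 and C9), against 10.8% of all 32851 promoters in the table. Among acute phase genes it was found in Saa1, Saa2, Saa3, Saa4, Orm2, Orm3, Hpx, Cp, Itih2 and Lcn2, which include genes well above and genes near a log2 ratio of 0. The windows of Saa1 and Saa2 (95.3% identical) and of Orm2 and Orm3 (86.6%) hold the match at almost the same position. Such copies are not independent sites, and the share of 47.6% counts each of them. The STAT3 palindrome TTCNNNGAA was in 2 acute phase promoters (9.52%; Apcs and Itih4) and 2 complement promoters (18.2%; C8a and Masp2), against 8.30% of all. The NF-kappaB motif, GGG and TTTCC with 2 unspecified bases between them, was in 3 acute phase promoters (14.3%), of Il1rn and Serpina3n, where the overlapping windows of 2 Il1rn starts hold the same site, and in 0 complement promoters, against 1.63% of all. The HNF1 motif, GTTAAT and ATTAAC around 1 unspecified base, and the PPAR response element, AGGTCA 2 times in a row around 1 unspecified base, had no match in member promoters, and were in 0.00913% and 0.0396% of all. Matches of different motifs did not overlap. A match is a string of letters in a short window, and says nothing of binding in these livers.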

How the data were processed

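The authors deposited 1 signal intensity per probe set and array (45101 probe sets, of which 64 are controls). Per the labels, these intensities came from the Affymetrix statistical algorithm with a scaling target of 1000, and both trimmed means (2% removed at either end) came to 1000.01. Scan settings in the labels are identical for the 2 arrays and were not used; a software version and detection calls were not found in what was used here. Column medians were 269.4 (null) and 287.9 (wild type).

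Gene symbols came from the platform annotation of 2016, which gave 34945 probe sets 1 symbol, 932 several and 9160 none. Only those with 1 symbol were used. Of 18193 named genes, 13041 reached the floor on 1 or both arrays and counted as measured (10060 on both). Log2 ratios of null over wild type were computed in Python 3.11.15 with pandas 2.3.3. The procedure was tested on simulated data with planted changes larger than any member ratio here. That test does not cover changes as small as those of the members. The number of arrays limits the precision. Named genes were all members, Ppara, and from each further list the genes at least 2-fold apart or, where none was, the one with the largest ratio above the floor on both arrays. The members, lists and limits were chosen with earlier results of these data known. Alternatives were 4 other scalings, 4 other floors and 2 other ways to summarise probe sets. Promoter sequences and gene order came from RefSeq (GRCm38.p6), with all 37 members matched by symbol in its gene table and 28 in its promoter table (without an entry: C2, C4b, Cfb, Cfi, Hp, Lbp, Masp1, Orm1 and Serping1).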

Additional observations from a re-analysis of the deposited data

How the results depend on the processing

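No paired analysis was possible because each genotype has 1 array, and for the same reason no replicate could be left out. Of the alternatives tried, scaling to the hybridization controls moved the 2 member medians furthest. It put the medians at 0.0473 for the acute phase and 0.10 for complement, left 1 gene of each class at least 1.5-fold higher (Orm3 and C2) and 0 of each at least 2-fold higher, and put 1 acute phase gene (Il1rn) at least 2-fold lower. Under median centring, the count of acute phase genes past 2-fold in the higher direction was 2 and that of complement genes at least 1.5-fold lower was 0. A floor at the 75th percentile left 0 acute phase genes higher in null by 2-fold or more. In the other 9 alternatives the acute phase median lay between 0.38 and 0.47 and the complement median between 0.40 and 0.52. Of the 35 genes, 21 (13 acute phase and 8 complement) were positive in each of the 10 alternatives that gave them a value. Apart from the control scaling, the direction of a member turned only for Lcn2 and Il6ra. Over everything measured, 365 genes passed 2-fold upward in null and 651 downward as deposited, and these counts were 1650 and 2336 with the floor at the 25th percentile, 98 and 157 at the 75th, 303 and 297 at the brightest Bacillus control, 2177 and 3096 without a floor, and 109 and 1759 under the control scaling. At 1.5-fold, 1438 and 1925 became 3108 and 3835 with the floor at the 25th percentile, 584 and 499 at the 75th, 1316 and 1060 at the Bacillus control, and 3606 and 4671 without a floor. Low signal limits Orm2 and Orm3, whose log2 ratios were 0.03 and 0.25 with the floor at the 75th percentile, and Lcn2, which lay under that floor.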

Other observations

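Several dim probe sets of the members departed from the brighter ones of the same gene. One probe set of Cp gave 33.9 in null and 457.3 in wild type, and another gave 233.5 in null and 42.1 in wild type, under the floor on both arrays. A second probe set of Lbp gave 108.5 in null and 484.3 in wild type, and one of Masp1 gave 112.2 in null and 351.6 in wild type. These values lay at or below the level of the Bacillus controls on at least 1 array, whose brightest gave 422.4 in null and 316.5 in wild type.

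Markers of 4 further cell types were measured. Liver sinusoidal endothelial markers had a median log2 ratio of 0.10 over 6 measured genes, and stellate cell and fibroblast markers 0.32 over 5. T and B lymphocyte markers had 0.43 over 2, of which only 1 (Cd8a) was above the floor on both arrays. Other probe sets of Cd8a lay under the floor on at least 1 array. Cholangiocyte markers had 0.24 over 3, of which 0 were above the floor on both arrays, so their ratios depend on the floor. Under the control scaling the medians of the 4 types, in this order, were -0.28, -0.06, 0.05 and -0.14. Among the 6 endothelial markers, 4 were positive as deposited and 2 negative. Pecam1 was at least 2.36-fold lower in null, at 228.0 against 636.9 in wild type. Its null signal was under the floor and dimmer than the brightest Bacillus control (422.4), so this fold is one to the floor.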
